A study of Mus musculus with 6 samples.

Results

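The genes described here encode the chains of the fibrillar collagens I, III and V in the infarct scar of the mouse heart: Col1a1, Col1a2, Col3a1, Col5a1, Col5a2 and Col5a3. They were picked by gene name, and all 6 were found among the 14798 genes of the deposited count table. The rule uses no measured value, but it was set with earlier results of these data known. RNA came from the scar area of the left ventricle, taken 6 weeks after infarction from mice whose operation on the left anterior descending artery was done at 10 weeks of age; the labels give an age of 14 to 16 weeks for the tissue. There were 2 groups of 3 libraries, control (Sox9 fl/fl, floxed Sox9 alleles and no Cre named) and deletion (Sox9 fl/perCre, in which a Cre called Per-Cre is described as removing Sox9 from fibroblasts). Strain, sex and the promoter behind Per-Cre are not stated in those labels. Nor do they tie each library to its own animal, and a p-value here therefore covers only the spread among 6 libraries, part of which may be technical. The series title concerns Sox9 in fibroblasts and fibrosis after infarction, and these collagens are the main protein of a fibrotic scar.

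Fibrillar collagens are secreted as procollagens, trimmed at both ends and packed into fibrils that carry load. Type I collagen, built from the Col1a1 and Col1a2 chains, gives a scar most of its stiffness; type III, built from Col3a1 alone, is the more pliable partner that mixes into the same fibrils. Type V collagen, built mainly from the Col5a1 and Col5a2 chains and in a rarer form also from Col5a3, sits inside type I fibrils, where it starts fibril assembly and limits fibril width. In the heart these chains are made chiefly by fibroblasts, and their genes are switched up after infarction. SOX9 is best known for driving the cartilage fibrillar collagens.

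The property that makes these chains a family is a glycine opening each triplet of amino acids over a long stretch, without which the triple helix cannot close. It can be read in their coding sequence, shown here because it is what all 6 chains share. Each line below gives the opening 60 bases of the longest stretch in which each triplet of codons opens with a glycine codon (GGN), 5′ to 3′ on the coding strand from the GENCODE transcripts of release M21 (mm10), with those glycine codons in capitals.
Col1a1: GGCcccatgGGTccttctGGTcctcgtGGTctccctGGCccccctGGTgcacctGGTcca
Col1a2: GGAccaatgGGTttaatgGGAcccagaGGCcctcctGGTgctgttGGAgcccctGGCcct
Col3a1: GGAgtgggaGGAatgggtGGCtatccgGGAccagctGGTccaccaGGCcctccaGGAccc
Col5a1: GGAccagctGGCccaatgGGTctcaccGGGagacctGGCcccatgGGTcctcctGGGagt
Col5a2: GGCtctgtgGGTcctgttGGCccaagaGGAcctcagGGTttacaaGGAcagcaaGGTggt
Col5a3: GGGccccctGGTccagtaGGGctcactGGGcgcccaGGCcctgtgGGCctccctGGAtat
The uninterrupted repeat ran over 338 such triplets in Col1a1, 339 in Col1a2, 344 in Col3a1, 338 in Col5a1, 339 in Col5a2 and 337 in Col5a3, so the helical part has nearly one length in all chains. Outside the helix the chains differ: the coding sequence has 1372 codons in Col1a2 and 1838 in Col5a1. In spite of the shared repeat no stretch of 50 bases was common to any pair of the 6 transcripts, so a read of that length fits 1 chain at most.

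In mm10, Col1a1 (NM_007742) lies on chromosome 11 from 94936224 to 94953042, Col1a2 (NM_007743) on chromosome 6 from 4505618 to 4541543, Col5a1 (NM_015734) on chromosome 2 from 27886425 to 28039510 and Col5a3 (NM_016919) on chromosome 9 from 20770057 to 20815067. Col3a1 (NM_009930; chromosome 1, 45311538 to 45349706, plus strand) and Col5a2 (NM_007737; chromosome 1, 45374331 to 45503282, minus strand) are neighbours whose 3′ ends face each other across 24624 bases with 0 annotated genes between them. The gene models had between 51 and 67 exons. Exonic bases shared with another GENCODE gene were few: 141 of Col3a1 with Gm47302 on the same strand, and 113 and 99 of Col5a1 with Gm13372 and 2810430I11Rik on the opposite strand. Counts were given per whole gene, and the use of strand in counting is not given in the sources used here.

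Promoter sequence was available for 4 of the 6 genes and is shown because these genes are candidates for a SOX factor's reach and for the CCAAT box that type I collagen promoters are known for. The lines give the 250 bases before the start of Col1a2 (chr6:4505368-4505617, plus strand), Col3a1 (chr1:45311288-45311537, plus strand), Col5a1 (chr2:27886175-27886424, plus strand) and Col5a3 (chr9:20815068-20815317, minus strand), 5′ to 3′, from RefSeq on GRCm38.p6. Capitals mark CCAAT (or its complement ATTGG) and the SOX core letters AACAAT and ACAAAG (or their complements ATTGTT and CTTTGT).
Col1a2: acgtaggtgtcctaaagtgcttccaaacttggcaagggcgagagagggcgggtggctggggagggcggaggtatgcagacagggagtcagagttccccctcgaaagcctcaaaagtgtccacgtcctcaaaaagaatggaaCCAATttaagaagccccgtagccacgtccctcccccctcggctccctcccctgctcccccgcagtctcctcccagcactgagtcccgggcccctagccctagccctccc
Col3a1: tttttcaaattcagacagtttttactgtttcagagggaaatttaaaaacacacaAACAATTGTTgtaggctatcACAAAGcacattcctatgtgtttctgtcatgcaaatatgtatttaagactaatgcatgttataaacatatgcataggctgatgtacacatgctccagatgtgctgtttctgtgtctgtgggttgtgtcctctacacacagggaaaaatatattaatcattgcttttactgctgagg
Col5a1: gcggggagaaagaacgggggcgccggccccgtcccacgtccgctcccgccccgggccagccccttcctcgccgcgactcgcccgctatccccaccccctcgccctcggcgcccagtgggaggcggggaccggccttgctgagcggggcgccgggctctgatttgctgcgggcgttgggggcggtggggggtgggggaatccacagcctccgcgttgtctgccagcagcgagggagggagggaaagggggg
Col5a3: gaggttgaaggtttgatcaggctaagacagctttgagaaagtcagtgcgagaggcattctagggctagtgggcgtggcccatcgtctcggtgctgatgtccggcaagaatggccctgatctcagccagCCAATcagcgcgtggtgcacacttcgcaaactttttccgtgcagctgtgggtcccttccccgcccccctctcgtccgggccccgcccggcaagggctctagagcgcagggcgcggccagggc
Col3a1 was the 1 promoter of the 4 with SOX core letters: AACAAT and its complement overlap each other, and ACAAAG begins at position -176 from the start. Either SOX core was present in 24% of 32851 promoters of the same length. Col1a2 and Col5a3 each had 1 CCAAT, at positions -109 and -122, and 33.8% of all promoters held one. GC content ranged from 35.2% in Col3a1 to 76.4% in Col5a1. These matches describe letters only.

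Total counts per library ran from 18538171 to 55523974, and every count of replicates 2 and 3 was even while 49.9% and 49.3% were even in replicate 1 of the control and deletion groups, so the replicate 1 libraries, which the labels do not set apart, are also compared on their own. Rn45s, the ribosomal RNA precursor, was at 12176 and 22484 CPM in these libraries and at 623 to 1004 CPM in the other 4. CPM are counts scaled to a common library total, here also by TMM, an edgeR factor per library that aligns the bulk of genes. Sox9, the targeted gene, was at 71.1, 75.8 and 67.7 CPM in control replicates 1 to 3. In the Sox9-deleted scars it was at 42.1, 51.7 and 55.8 CPM (log2 fold change -0.52 ± 0.15 SE, edgeR unadjusted p = 0.00985, edgeR adjusted p = 0.564). The scars called Sox9-deleted thus held on average 69.7% of the control level of Sox9 RNA. Control replicate 3 had Xist at 812 CPM and Ddx3y, a gene of the Y chromosome, at 0.596 CPM. The other 5 libraries had at most 7.61 CPM of Xist and at least 122 CPM of Ddx3y. Control replicate 3 thus reads as female and the other 5 libraries as male. It was the highest library for Col1a1, Col1a2, Col3a1 and Col5a3 and the lowest control for Col5a1 and Col5a2. The part of sex in the differences was not tested. In deletion replicate 1 the summed CPM of 8 cardiomyocyte markers was 116932, against 41599 to 64971 in the other 5 libraries.

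All 6 collagen genes had a lower mean in Sox9-deleted scars than in control scars, and none passed the test. The edgeR quasi-likelihood test with genotype as the only term called 0 of 14771 genes at an adjusted p below 0.05, a background of 0.0%, and 0 of the 6. DESeq2 called 0.122% of genes lower and 0.346% in either direction, edgeR with replicate 1 as a term called 0.00677%, and neither called any of the 6. At an unadjusted p below 0.05 it found 1 of the 6, Col5a2, lower in Sox9-deleted scars, against 3.04% of all genes lower and 8.34% in either direction. That number was 0 of the 6 with library totals alone or when any 1 of the 3 controls was left out, and 2 of the 6 with replicate 1 as a term. Over all genes, in either direction, it was 1186 with library totals alone and 1395, 452 and 630 without control replicates 1, 2 and 3. With replicate 1 as a term it was 3348 of 14771, against 1232 without, so the setting shifts the whole table. In 2 of the 6, Col5a1 and Col5a2, every control exceeded every deletion library, against 8.6% of all genes that way and 17.5% either way. The median log2 fold change of the 6 genes was -0.51, beside -0.0174 over all genes tested. The 6 genes share their libraries and are not 6 separate observations.

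**Figure D1:**
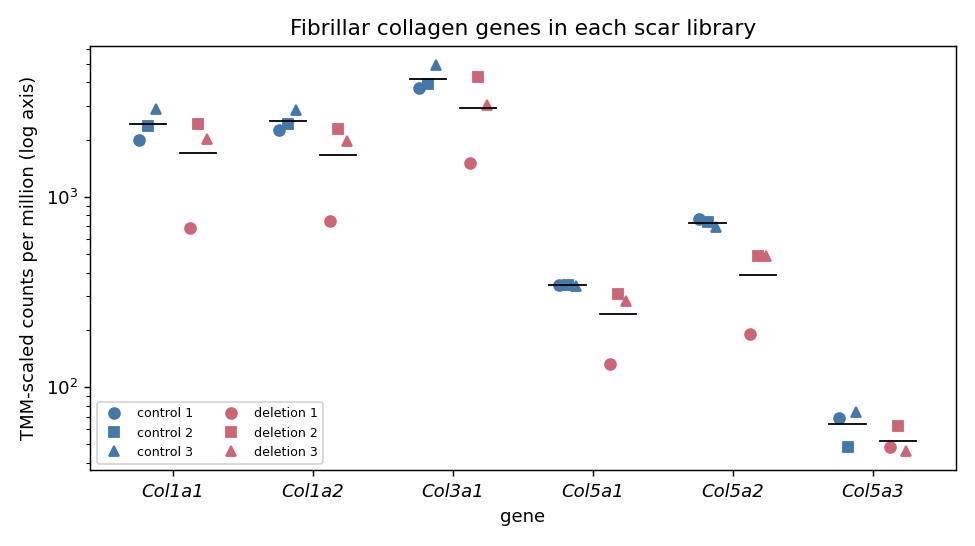
TMM-scaled CPM of each collagen gene on a log axis, 1 point per library (circle, square and triangle for replicates 1, 2 and 3) and a bar at each group's mean. Deletion replicate 1 is the lowest library for 5 of the 6 genes, and the groups separate only in Col5a1 and Col5a2.

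Type I collagen overlapped between the groups. Col1a1, the alpha 1 chain, was at 1999, 2361 and 2894 CPM in control replicates 1 to 3 and at 683, 2402 and 2016 CPM in deletion replicates 1 to 3. Deletion replicates 2 and 3 lay within the control range, and deletion replicate 1 lay far below every other library. The means were 2418 ± 450 and 1700 ± 902 CPM (SD, n = 3 each), with a log2 fold change of -0.51 ± 0.47 (SE; edgeR adjusted p = 0.691). Col1a2, the alpha 2 chain that completes the type I trimer, followed it closely. It was at 2258, 2420 and 2842 CPM in control scars and 745, 2277 and 1971 CPM in Sox9-deleted scars, a log2 fold change of -0.59 ± 0.42 (SE; edgeR adjusted p = 0.625). Here too deletion replicate 2 lay inside the control range, and deletion replicate 3 lay below it. Without deletion replicate 1 the log2 fold changes were -0.14 and -0.25, and without control replicate 3, the highest control for both, they were -0.36 and -0.49.

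Type III collagen was the most abundant chain in every library. Col3a1 was at 3738, 3898 and 4914 CPM in control scars and at 1502, 4285 and 3046 CPM in Sox9-deleted scars. Deletion replicate 2 exceeded control replicates 1 and 2, so the groups overlapped. The log2 fold change was -0.51 ± 0.40 (SE; edgeR adjusted p = 0.657), and -0.20 without deletion replicate 1.

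The type V chains differed among themselves. Col5a1, which encodes the chain present in all common type V trimers, was nearly constant among controls, at 343, 343 and 342 CPM, and lower in each deletion scar, at 133, 310 and 285 CPM. The groups did not overlap, yet the gap between the lowest control and deletion replicate 2 was small beside the spread of the deletion group, and the log2 fold change was -0.50 ± 0.32 (SE; edgeR adjusted p = 0.597), and -0.21 without deletion replicate 1. Col5a2, its partner chain, showed the largest difference of the 6 genes. It was at 767, 737 and 694 CPM in control scars and 191, 489 and 487 CPM in Sox9-deleted scars, where replicates 2 and 3 were almost equal. Deletion scars held on average 53.1% of the control level of Col5a2, against 66.4% to 81.9% for the other chains, and its log2 fold change was -0.91 ± 0.37 (SE; unadjusted p = 0.043, edgeR adjusted p = 0.564). Without deletion replicate 1 it was -0.59, and replicates 2 and 3 alone gave -0.57. Col5a3, the minor chain, stood apart from the others: it was at 69.1, 48.7 and 74.2 CPM in control scars and 48.8, 62.3 and 46.2 CPM in Sox9-deleted scars. Its groups overlapped, control replicate 2 and deletion replicate 1 were at one level, and the log2 fold change was -0.29 ± 0.21 (SE; edgeR adjusted p = 0.628).

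The differences were larger with deletion replicate 1 than without it. The pair of replicate 1 libraries, those with odd counts, differed by -1.56 for Col1a1, -1.61 for Col1a2, -1.32 for Col3a1, -1.38 for Col5a1, -2.01 for Col5a2 and -0.51 for Col5a3 on the log2 scale, with no test possible. Replicates 2 and 3 gave -0.27, -0.32, -0.28, -0.22, -0.57 and -0.20 in the same order of genes. With replicate 1 against replicates 2 and 3 as a term in the edgeR fit the values ran from -0.29 for Col5a3 to -1.02 for Col5a2, and the lowest adjusted p was 0.134, that of Col5a2. The sign was negative for all 6 genes in both sets of libraries.

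**Figure D2:**
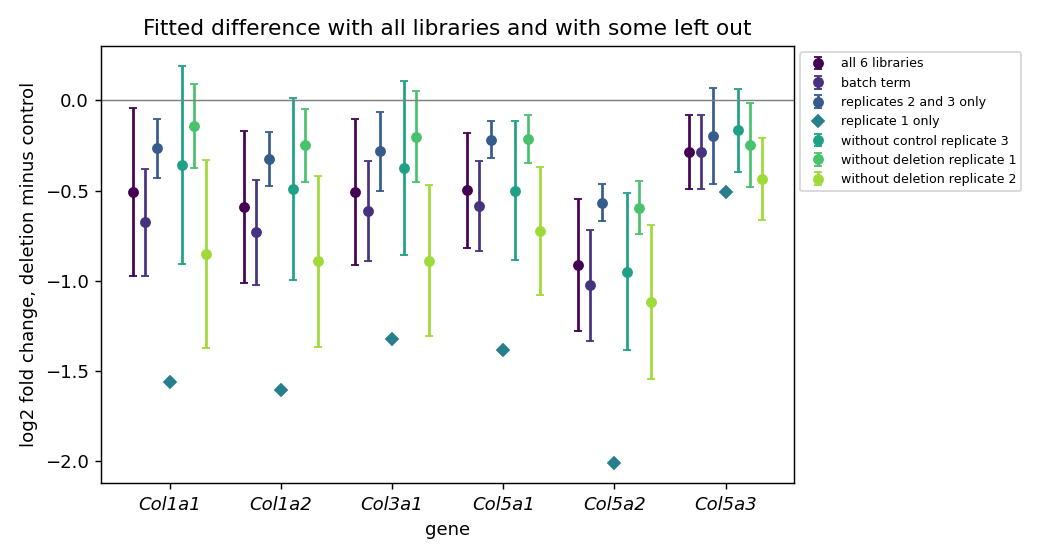
Log2 fold change (deletion minus control) of each gene in the fit of all 6 libraries and in other settings. These add a term for replicate 1 against the others or leave libraries out. The legend calls that term a batch term, although the sample labels name no batch. Bars are standard errors, and the diamonds compare 1 library with 1 and have none. All points are below 0, Col5a2 is the lowest gene in each setting, and values without deletion replicate 1 lie between -0.14 and -0.59.

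Cell type markers differed in the same libraries. The summed CPM of 8 fibroblast markers was 4939, 6605 and 5720 in controls and 3224, 4546 and 5304 in Sox9-deleted scars, and 7 of the 8 had negative log2 fold changes. For 5 markers of activated fibroblasts, such as Postn and Acta2, the sums were 2011, 2161 and 1509 against 796, 1715 and 1632 CPM, and 5 of 5 were negative. The cardiomyocyte markers were higher on average in Sox9-deleted scars, with 0 of 8 negative, and none of the 8 was at 0 in any library. The groups overlapped in the summed level of these 8, because control replicate 1 (64971 CPM) exceeded deletion replicates 2 (64100 CPM) and 3 (59651 CPM). Control replicates 2 and 3 were the lowest libraries, at 41599 and 42885 CPM, and deletion replicate 1 was the highest, at 116932 CPM. The sums of 5 macrophage markers were 219, 318 and 476 CPM in controls against 156, 272 and 249 CPM, with 5 of 5 negative. For 5 endothelial markers deletion replicate 1 had 1127 CPM and the other libraries 564 to 682 CPM. Chondrocyte markers, of which 3 of 5 were measured, summed to 8.68, 18.9 and 51.7 CPM in control scars and 1.53, 8.04 and 10.9 CPM with the deletion, and Col2a1 was at 0 in deletion replicate 1. Smooth muscle and pericyte sums lay between 1164 and 1423 CPM, with 4 of 5 markers negative. The fifth, Rgs5, was at 1087 CPM in deletion replicate 1 and at 425 to 693 CPM elsewhere, while Myh11, Tagln, Cnn1 and Cspg4 were each lowest in deletion replicate 1, at 189, 106, 5.23 and 35.4 CPM. The mean centred log2 level of these 5 markers was -0.62 there and between -0.04 and 0.29 in the other libraries. The 3 measured Schwann cell markers (1 negative) and the 5 T and B cell markers (2 negative) summed to at most 19.0 and 42.6 CPM. Fap and Col2a1 are also on pathway lists below. In bulk tissue, fewer fibroblasts and less collagen RNA per fibroblast cannot be told apart, and the part of these cell types in the collagen differences was not tested. Taken relative to the mean log2 level of the 8 fibroblast markers in the same library, a measure added after the data were seen, the difference was -0.34 for Col1a1, -0.39 for Col1a2, -0.28 for Col3a1, -0.25 for Col5a1, -0.69 for Col5a2 and 0.07 for Col5a3. On that measure the groups overlapped in every gene except Col5a2, which was at 2.05, 1.52 and 1.71 in controls and 0.516, 1.38 and 1.31 in Sox9-deleted scars. The share of all genes whose groups separate on this measure was not computed, so the separation of Col5a2 has no background to be read against. The values of Col5a1, which did not overlap in CPM, overlapped here, so its separation depends on the scale.

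**Figure D3:**
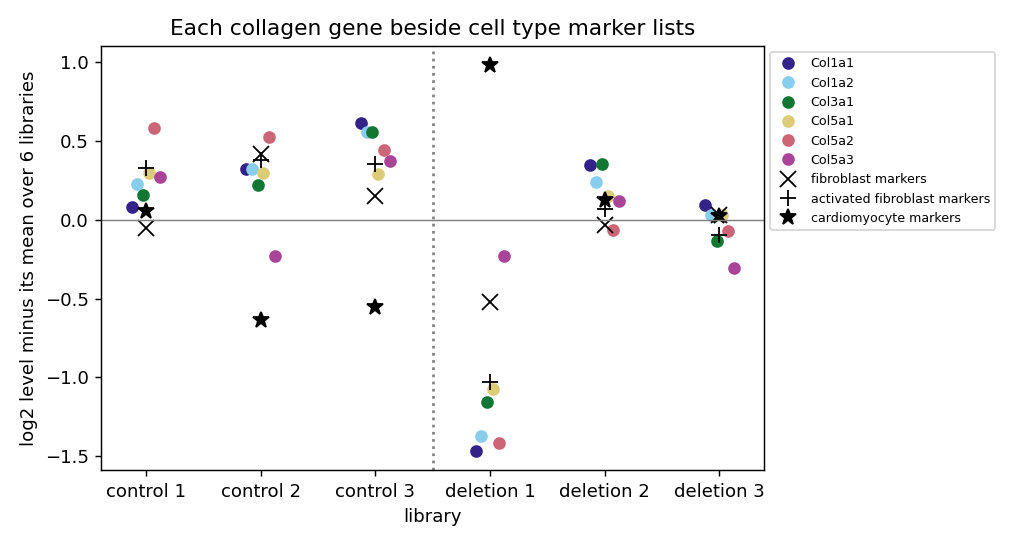
Log2 level of each collagen gene in each library, minus its mean over the 6 libraries, beside the mean of the fibroblast, activated fibroblast and cardiomyocyte marker lists on the same scale. In deletion replicate 1 the cardiomyocyte markers are at 0.981 and the activated fibroblast markers at -1.03, where Col1a1 is at -1.47 and Col5a3 at -0.23.

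The 6 genes together took 0.889%, 1.08% and 1.28% of all counts in control replicates 1 to 3. Their share was 0.276% in deletion replicate 1 and 0.80% to 0.99% in deletion replicates 2 and 3, so the groups overlapped. Their summed level was 9174, 9807 and 11760 CPM in control scars and 3303, 9827 and 7850 CPM in Sox9-deleted scars, which overlapped (log2 difference -0.68, p = 0.3 in a two-sided exact permutation test). Without deletion replicate 1 the log2 difference of the sum was -0.21, and replicates 2 and 3 alone gave -0.29. With 3 libraries against 3 the smallest p of that test is 0.1. Per kilobase of transcript, the measure that allows genes to be compared, Col3a1 led in every library with 678 to 892 CPM per kb in controls, followed by Col1a2 with 437 to 549.9 and Col1a1 with 340 to 492. The order Col3a1, Col1a2, Col1a1, Col5a2, Col5a1, Col5a3 was the same in all 6 libraries, although the control ranges of Col1a2 and Col1a1 overlap. Col5a2 followed at 106 to 117 CPM per kb and Col5a1 at 41.0 to 41.2, and Col5a3 was lowest at 8.06 to 12.3. Among all genes Col3a1 ranked between 45 and 74 per kilobase in controls and 62, 86 and 314 in deletion replicates 2, 3 and 1.

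Ratios between chains remove library size and show how evenly the chains differed. Of the 7 ratios compared, the groups separated in 1, that of Col5a1 to Col5a2, the chains of the common type V trimer. The share of all gene pairs whose ratios separate was not computed, so this separation has no background to be read against. Col5a1 counts were 0.448, 0.466 and 0.492 of Col5a2 counts in the controls, against 0.693, 0.634 and 0.585 in Sox9-deleted scars. The log2 difference was 0.44, a 1.36-fold higher ratio in Sox9-deleted scars (p = 0.1 in a two-sided exact permutation test, the smallest the design allows; 0.7 adjusted over the 7 ratios). The replicate 1 pair gave 0.63 and replicates 2 and 3 gave 0.35, with values between 0.38 and 0.50 when any single library was left out. The shares of the type V chains come from the same counts. Per kilobase, Col5a2 made up 66.5% to 69.5% of these chains in controls and 54.9% to 64.0% in Sox9-deleted scars. Col5a1 made up 24.3% to 25.8% and 29.4% to 30.5%.

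The chains of type I kept nearly the same ratio in all libraries. Col1a1 counts were 0.886, 0.976 and 1.02 of Col1a2 counts in controls and 0.916, 1.06 and 1.02 in Sox9-deleted scars, a log2 difference of 0.06 (p = 0.5, exact permutation test). The lowest values were those of both replicate 1 libraries, and within the replicate 1 pair and replicates 2 and 3 the log2 differences were 0.05 and 0.06. The ratio of Col3a1 to Col1a1 was 1.74 ± 0.115 in controls and 1.83 ± 0.347 in Sox9-deleted scars (SD, n = 3 each), with 2.20 in deletion replicate 1 and 1.51 in deletion replicate 3 lying on either side of all 3 controls (log2 difference 0.06, p = 0.8, exact permutation test). The ratio of Col5a1 to Col1a1 was 0.145 ± 0.0267 and 0.155 ± 0.0345 (SD, n = 3 each; exact permutation p = 0.7). These p-values do not show equal ratios, since the SD of these 3 log2 ratios within a group reached 0.31.

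Col5a2 and Col3a1, neighbours on chromosome 1, differed in pattern: Col5a2 was at 0.205, 0.189 and 0.141 of Col3a1 counts in controls and 0.127, 0.114 and 0.16 in Sox9-deleted scars. The groups overlapped through control replicate 3 and deletion replicate 3 (log2 difference -0.41, exact permutation p = 0.2). Ratios of Col5a3 were highest in deletion replicate 1, where its counts were 0.368 of Col5a1 against 0.142 to 0.217 in the other 5 libraries. The log2 differences were 0.32 against Col5a1 and 0.41 against Col1a1 (exact permutation p = 0.6 each), and replicates 2 and 3 gave 0.0414 and 0.0849.

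**Figure D4:**
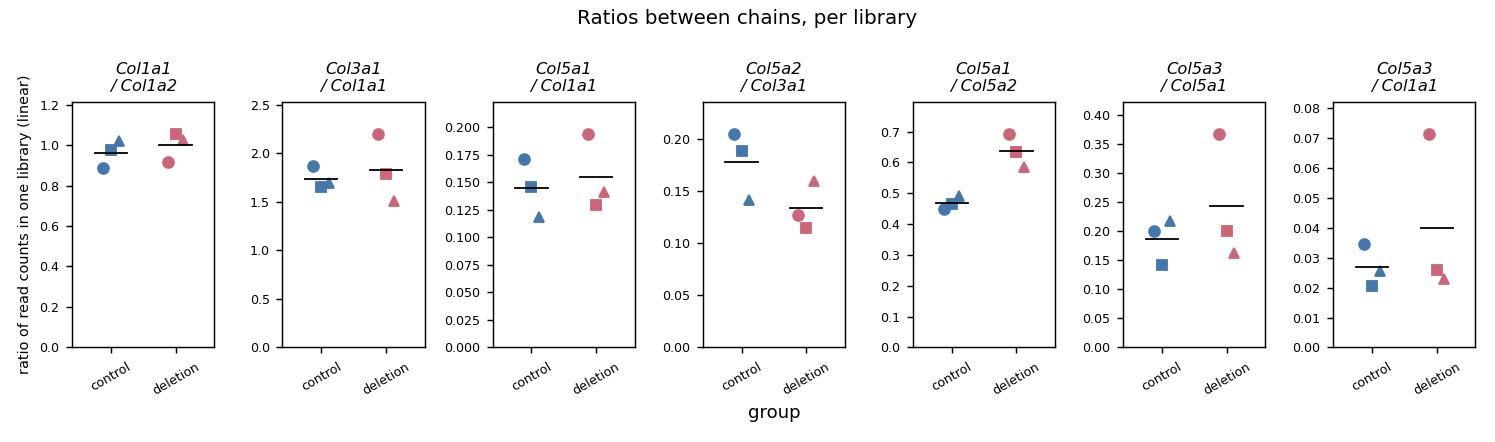
Ratio of the read counts of 2 chains within each library, on linear axes from 0, with a bar at each group's mean (circle, square and triangle for replicates 1, 2 and 3). The ratio of Col5a1 to Col5a2 is the only panel where the groups do not overlap, at most 0.492 in controls and at least 0.585 in Sox9-deleted scars.

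Profiles over the 6 libraries were compared by the root mean square (RMS) difference of log2 levels after centring each gene on its own mean, where a small value means a like pattern. Col1a1 and Col1a2 differed by 0.0903, and each was the second nearest of all genes to the other. Col1a2 and Col3a1 differed by 0.132 and Col1a1 and Col3a1 by 0.168. Col5a1 and Col5a2 differed by 0.235, more than Col5a1 differed from Col1a2 (0.17) or from Col3a1 (0.168). Col5a3 was farthest, at 0.431 to 0.603 from each of the other chains. The genes nearest to single chains were Tmem176a (0.0854 from Col1a1), Tmem176b (0.0874 from Col1a2), Trem2 (0.106 from Col3a1), Rab34 (0.0632 from Col5a1), Rassf7 and Enpp1 (0.091 and 0.0926 from Col5a2) and Slx1b and Vasp (0.0753 and 0.0776 from Col5a3). Rassf7 was at 0.861 to 1.06 CPM in controls and at 0.158 CPM in deletion replicate 1, so its match rests on few reads. Enpp1, an enzyme that makes pyrophosphate, was at 129, 119 and 120 CPM in the controls against 28.4, 70.6 and 77.0 CPM, and Trem2, a receptor of macrophages, at 6.40, 6.80 and 9.31 CPM against 2.22, 7.21 and 4.67 CPM. Nearest to the mean of the 6 chains were Mthfd1l (0.0659), Gpr173, Renbp, Milr1 and Plekha4, with control means of 2.96 to 20.9 CPM. Deletion replicate 1 was the lowest library for each of these 5, as for the mean of the chains. Tmem176a and Tmem176b share 81 exonic bases, and Slx1b shares 360 with Bola2.

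Of the genes that fold, process and cross-link these collagens most had a lower mean in Sox9-deleted scars, and 0 of 74 tested genes on 9 lists passed the adjusted threshold, as over all genes (0.0%). Of the 74, 68 had negative log2 fold changes, against 52.4% of all genes, and 12 were lower at an unadjusted p below 0.05, against 3.04% of all genes. The number at that p, in either direction, was 6, 5 and 7 without control replicates 1, 2 and 3, and 10, 7 and 16 without deletion replicates 1, 2 and 3. It was 31 with replicate 1 as a term. Over all genes the number was 1395, 452 and 630 without control replicates 1, 2 and 3. It was 775, 1063 and 1726 without deletion replicates 1, 2 and 3, of 14778 to 14792 genes tested. With replicate 1 as a term it was 3348 of 14771, against 1232 without, so the rise to 31 came with a rise over all genes. The groups did not overlap in 27, each with controls higher, against 8.6% of all genes. These lists were chosen with earlier results of these data known and share their libraries with the collagens, including deletion replicate 1. The medians by role ran from -0.29 for propeptide cleavage to -0.94 for the other fibrillar collagens. None of the genes with values below passed the adjusted threshold.

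In the endoplasmic reticulum, 15 of 19 folding and hydroxylation genes were negative. P4hb, the shared subunit of prolyl 4-hydroxylase, was at 749 ± 58.4 CPM in control scars and 574 ± 141 CPM in Sox9-deleted scars (SD, n = 3 each), and Serpinh1, the collagen chaperone HSP47, at 689 ± 126 and 548 ± 147 CPM. The list of export genes and regulators of collagen mRNA was negative in 6 of 6. Of its 3 export genes, Mia3, which loads procollagen into transport carriers, was at 195 ± 33.8 and 191 ± 18.4 CPM (log2 fold change -0.03), and the coat protein Sec23a, named after its values were seen, also had -0.03. Sec24d, another coat protein of those carriers, was at 117 ± 4.80 and 93.1 ± 19.4 CPM. Of the propeptide cleavage genes 7 of 7 were negative. Adamts2, which removes the amino-terminal propeptide, was at 299 ± 69.5 and 202 ± 85.8 CPM, and Pcolce, the enhancer of carboxy-terminal cleavage, at 222 ± 25.5 and 189 ± 69.6 CPM.

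Cross-linking and fibril surface genes had larger differences. The cross-linking enzyme genes were negative in 5 of 5. Lox was at 335 ± 97.3 CPM in control scars and 142 ± 90.2 CPM in Sox9-deleted scars (log2 fold change -1.24 ± 0.57 SE, edgeR adjusted p = 0.564), and Loxl1 was at 247, 306 and 287 CPM in controls against 95.3, 226 and 234 CPM. Among genes of the fibril surface 8 of 9 were negative, among them the proteoglycan Bgn, at 7846 ± 728 and 4426 ± 1996 CPM, and Sparc, which binds collagen, at 5006 ± 503 and 3114 ± 807 CPM. The groups did not overlap in Lox, Loxl1, Bgn or Sparc, with controls higher. The same held for P4hb, Sec24d, Itgb1, Mmp2 and Ctgf on other lists. Controls were higher without overlap in 3 of 5 cross-linking and 3 of 9 fibril surface genes. They were so in 9 of 19 folding, 4 of 8 receptor, 3 of 9 TGF-beta and 2 of 5 other fibrillar collagen genes. The number was 1 of 6 for export and regulators, 1 of 7 for propeptide cleavage and 1 of 6 for degradation genes. Over all genes the share was 8.6%. The other fibrillar collagens were negative in 5 of 5: Col11a1, a chain that also joins type V trimers, was at 70.0 ± 43.0 and 36.4 ± 27.4 CPM, and Col27a1 at 56.8 ± 3.21 and 40.1 ± 19.5 CPM.

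Receptor, degradation and TGF-beta genes had smaller median differences. Collagen receptor genes were negative in 8 of 8, with the integrin subunit Itgb1 at 1025 ± 76.6 and 857 ± 59.8 CPM and the discoidin receptor Ddr2 at 181 ± 56.9 and 146 ± 46.0 CPM. Of 6 degradation genes 5 were negative, with the gelatinase Mmp2 at 561 ± 21.9 and 436 ± 112 CPM and the membrane metalloproteinase Mmp14, a type I collagenase, at 285 ± 64.2 and 195 ± 88.6 CPM. The TGF-beta genes were negative in 9 of 9. Ctgf, a matricellular TGF-beta target, was at 1398 ± 242 and 744 ± 263 CPM, a log2 fold change of -0.91 ± 0.33 (SE; edgeR adjusted p = 0.564), and the ligand Tgfb3 was at 299 ± 47.1 and 221 ± 111 CPM. All ± values of levels in these paragraphs are SDs of 3 libraries. Exonic bases shared with another annotated gene, which can mix counts, were found for Ctgf (665 bases), Tgfb3 (257), Pcolce (112), Ddr2 (90) and Lox (30) among these.

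**Figure D5:**
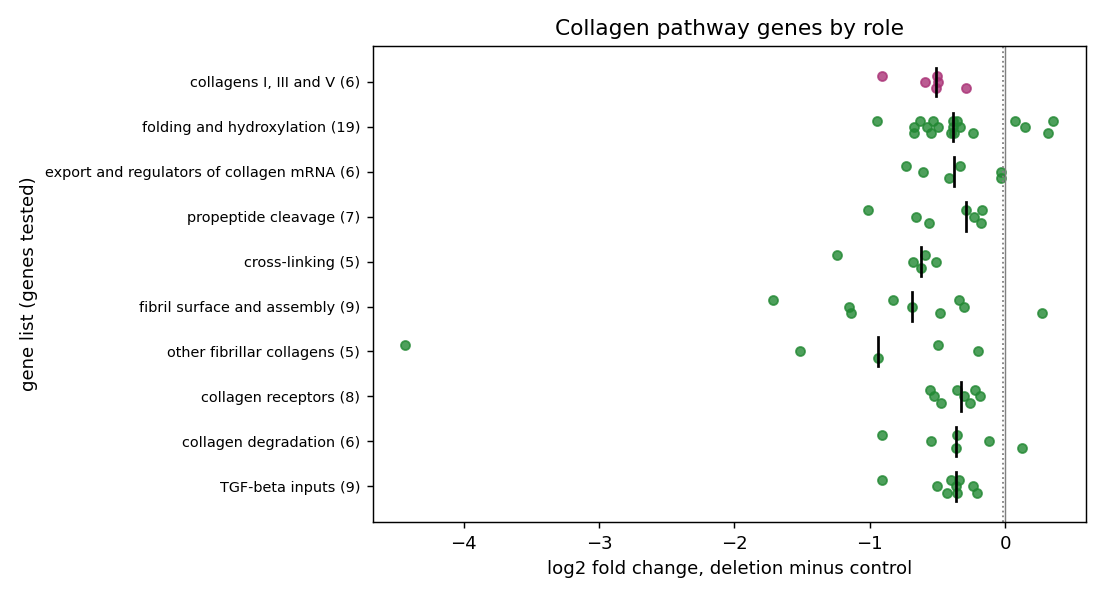
Log2 fold change (deletion minus control) of the 6 collagen genes and of 74 pathway genes by role, 1 point per gene, with a black bar at each list's median and a dotted line at the median of all genes tested. Most points lie below 0; the leftmost is Col2a1 at -4.43, whose count was 0 in deletion replicate 1.

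In the authors' deposited table the log2 fold changes, ratios of group means of the authors' own TMM values, were -0.70 for Col1a1, -0.76 for Col1a2, -0.63 for Col3a1, -0.61 for Col5a1, -1.06 for Col5a2 and -0.31 for Col5a3. The order of the genes, with Col5a2 farthest from 0 and Col5a3 nearest, was that of the counts. The NOISeqBIO probability in the authors' deposited table was between 0.999 and 1 for all 6, a range to be read beside the 79.0% of all genes in that table at or above 0.95.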

How the data were processed

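Per the submitters' processing notes, Trim Galore, STAR, deepTools and mm10 were used, with no role or version stated; the counting tool is not given in the sources used here. Libraries were made from 100 ng of RNA with the ScriptSeq v2 kit, per the labels' protocols. The authors deposited raw read counts per gene for 1 RefSeq transcript each. Per the file headers there were also TMM values, a normalized signal, and group means of them. The deposited log2 fold change is the ratio of these means on the log2 scale, beside a NOISeqBIO probability, a deposited score from 0 to 1. Listed genes had a mean count of at least 7. Within a library the authors' TMM values were not a fixed multiple of the counts (5th to 95th percentile 1.60 to 3.02 in control replicate 1), so the counts were used.

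Counts were tested by quasi-likelihood in edgeR 4.0.16 under R 4.3.3 (TMM, filterByExpr, robust, genotype only, 4 residual degrees of freedom) and Benjamini-Hochberg adjustment over 14771 genes; the script was tested on simulated data. The SE of an edgeR log2 fold change was its absolute value divided by the square root of the test's F statistic. CPM values use TMM-scaled totals. Levels per kilobase use the deposited transcript lengths. Chain ratios and sums used two-sided exact permutation tests (SciPy 1.17.1). Alternatives were DESeq2 1.42.0, other scalings and filters, a term for replicate 1 against the others, a replicate block and leaving out each library. The counts of the libraries with only even counts were also halved, which again called 0 members. Total counts (18538171 to 55523974, with the even counts as deposited) leave little counting error for the 6 members, whose lowest count was 924. There replicate spread limits precision. Counting error is larger for genes of low level such as Rassf7. Named genes were the 6 members, Sox9, the 2 most abundant genes of each list and the 5 (2 per member) nearest profiles. Rn45s, Xist, Ddx3y, Postn, Acta2, Fap, Sec23a, Col2a1 and the named fibroblast and smooth muscle markers were chosen after seeing values. Of 38 named genes checked against GENCODE M21, 12 share exonic bases with another gene. The members and lists were chosen with earlier results of these data known.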

Additional observations from a re-analysis of the deposited data

How the results depend on the processing

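All 6 collagen genes kept a negative log2 fold change and an adjusted p above 0.05 in every edgeR and DESeq2 alternative tried, and 0 members and 0 pathway genes were called in each. DESeq2 called 51 of all genes and edgeR with the term for replicate 1 called 1, against 0 in edgeR without it (at an unadjusted p below 0.05 these found 1790, 3348 and 1232). The replicate 1 pair alone moved the values most. It gave -1.56 for Col1a1, -1.61 for Col1a2, -1.32 for Col3a1, -1.38 for Col5a1, -2.01 for Col5a2 and -1.47 for the summed genes. The log2 differences of ratios in that pair were -0.69 for Col5a2 to Col3a1 and 0.63 for Col5a1 to Col5a2. They were 0.87 for Col5a3 to Col5a1 and 1.05 for Col5a3 to Col1a1. The cause was not tested. Col5a3 changed sign relative to the fibroblast markers (0.0701), an alternative chosen after seeing the data. Leaving out single libraries gave -0.85 to -0.14 for Col1a1, -0.89 to -0.25 for Col1a2, -0.89 to -0.20 for Col3a1, -0.72 to -0.21 for Col5a1, -1.12 to -0.59 for Col5a2 and -0.45 to -0.17 for Col5a3, with deletion replicate 1 at the upper end except for Col5a3, where it was control replicate 3. Ratios of Col1a1 to Col1a2, Col3a1 to Col1a1, Col5a1 to Col1a1 and Col5a3 to the others crossed 0 in at least 1 alternative, and those of Col5a1 to Col5a2 and Col5a2 to Col3a1 did not. With library totals alone the median of all genes shifted by -0.15, and that of the 6 genes was -0.60. Same-numbered libraries did not all deviate together (correlations 0.482, 0.0131 and 0.18 for numbers 1, 2 and 3), so the numbers are not taken as pairs; the replicate block gave log2 fold changes from -0.28 for Col5a3 to -1.02 for Col5a2 and called 0 of 14771 genes (2560 at an unadjusted p below 0.05), as without it, and changed no other call.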

Other observations

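Values in the authors' deposited table and counts scaled here ordered the control libraries differently. For Col1a1 the authors' TMM values were 120735, 70976 and 88208 in control replicates 1 to 3, with replicate 1 the highest, whereas TMM-scaled counts were 1999, 2361 and 2894 CPM, with replicate 1 the lowest. For Col5a1, level among controls in CPM at 342 to 343, the deposited values were 17309, 11724 and 11832. In deletion replicate 1 both sources gave the lowest Col1a1 value, 41039 in the deposited table. The deposited table also held TMM values above 0 for 49 genes whose count was 0 in deletion replicate 1. How these values were made beyond the name in the header is not given in the sources used here.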
